A study of Mus musculus with 6 samples.

Results

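The dual-specificity MAP kinase phosphatases are enzymes that switch MAP kinases off. The family members followed here were Dusp1, Dusp2, Dusp4, Dusp5, Dusp6, Dusp7, Dusp8, Dusp10 and Dusp16, which were found by their symbols in a table of 15319 genes. All 9 had counts and were among the 15315 genes tested. They were measured in Tregs infiltrating lung-colonizing tumors of the LLC line, a mouse lung carcinoma line. The WT group carried Foxp3 Yfp-Cre, and the cKO group carried Xrcc6 flox/flox with the same Foxp3 Yfp-Cre. The floxed gene encodes Ku70, a DNA end-binding protein. The Cre recombinase is expressed from Foxp3 in both groups, so the deletion is limited to cells that use that gene. Mice were on the C57BL/6J background and 8 to 10 weeks old, received LLC cells through the tail vein, and their tumors were excised on day 21. RNA-Seq gave 3 libraries per group. The labels do not say whether each library came from a separate mouse. The p-values and intervals therefore measure only the spread between these samples, which may be technical.

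MAP kinases are activated when an upstream kinase phosphorylates a threonine and a tyrosine in their activation loop. The phosphatases of this family remove both phosphates, which ends the signal. Many of them are transcribed within minutes of MAP kinase activation and thereby close a negative feedback loop. Dusp1, Dusp2, Dusp4 and Dusp5 encode inducible enzymes of the nucleus, Dusp6 and Dusp7 encode cytoplasmic enzymes that prefer ERK, and Dusp8, Dusp10 and Dusp16 encode enzymes that prefer JNK and p38. In T cells, the T cell receptor activates ERK, and Dusp2, also called PAC-1, is known from activated T cells.

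The part of each transcript that encodes the catalytic loop is shown because the loop contains the residues that act on the phosphate. The catalytic cysteine attacks the phosphate, and the arginine at the end of the loop holds it. The stretches below are 24 bases long and were read from the longest reading frame of the GENCODE vM21 transcripts (GRCm38), with the codons of the cysteine and the arginine in capitals.
Dusp1: catTGCcaggccggcatctccCGG
Dusp2: cacTGCcaagctggcatctctCGC
Dusp4: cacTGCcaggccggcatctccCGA
Dusp5: cacTGCgaagctggggtttccCGG
Dusp6: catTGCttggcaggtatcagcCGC
Dusp7: cacTGCctagcaggcatcagcCGT
Dusp8: cacTGTctggctggcatctctCGC
Dusp10: cacTGCcaggccggcgtgtccCGA
Dusp16: cacTGCttagctgggatctctCGC

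The genes lie apart from each other, on 9 chromosomes of GRCm38. In GENCODE vM21, Dusp2 spans chr2:127336159-127338376, Dusp4 chr8:34807297-34819894, Dusp5 chr19:53529109-53542431, Dusp6 chr10:99263231-99267489, Dusp7 chr9:106368632-106375724 and Dusp10 chr1:184013302-184075636, all on the plus strand. Dusp1 (chr17:26505590-26562128), Dusp8 (chr7:142079490-142095843) and Dusp16 (chr6:134715468-134792625) are on the minus strand. Each stretch was located by a pattern that requires the cysteine and the arginine, so all 9 transcripts hold both codons by construction. Between members, from 13 (Dusp5 and Dusp6) to 22 (Dusp1 and Dusp4, and Dusp4 and Dusp10) of the 24 bases were identical. The loop of Dusp1 lay at chr17:26506592-26506615 on the minus strand, in exon 4 of 4. Those of Dusp2, Dusp4, Dusp5, Dusp6, Dusp7 and Dusp10 were also in the last exon. Those of Dusp8 (chr7:142083333-142083356, minus strand) and Dusp16 (chr6:134720559-134720582, minus strand) were in exon 6 of 7. The predicted proteins of these last members, 663 and 660 residues long, were longer than those of the other members, which had 318 (Dusp2) to 483 (Dusp10) residues.

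Promoters, from 250 bases before to 50 bases after the gene start given by RefSeq (GRCm38.p6), were available for 8 members, all but Dusp4. The RefSeq start can differ from that of the GENCODE span given above. The promoters of Dusp1, Dusp8 and Dusp10 lie inside those spans. The stretches that held a match to the site of a signal-responsive transcription factor are shown, since several members are known as signal-induced genes. Capitals mark the matches, which were searched on both strands, and each stretch is written on the strand of its gene. Dusp1 (chr17:26508573-26508652, minus strand) and Dusp8 (chr7:142095325-142095404, minus strand) held the cAMP response element TGACGTCA, Dusp5 (chr19:53529035-53529104, plus strand) a tandem pair of CArG boxes, the site of the serum response factor, and Dusp2 (chr2:127336029-127336098, plus strand) and Dusp16 (chr6:134792729-134792798, minus strand) the EGR site GCGNGGGCG.
Dusp1: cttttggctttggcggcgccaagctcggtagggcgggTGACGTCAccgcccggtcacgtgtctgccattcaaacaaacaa
Dusp8: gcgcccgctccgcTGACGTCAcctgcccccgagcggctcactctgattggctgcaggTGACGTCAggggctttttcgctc
Dusp5: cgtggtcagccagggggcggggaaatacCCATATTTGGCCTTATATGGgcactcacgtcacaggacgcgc
Dusp2: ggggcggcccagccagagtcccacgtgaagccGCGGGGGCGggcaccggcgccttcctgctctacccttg
Dusp16: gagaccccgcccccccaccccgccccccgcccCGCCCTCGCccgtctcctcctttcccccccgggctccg

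The cAMP response element was present in 2 of 8 members and in 1.79% of all 32851 promoters. The CArG box was present in 1 of 8 members and in 1.63% of promoters, and the EGR site in 2 of 8 and in 5.55%. The shorter core TGACG, which is contained in the cAMP response element, occurred in 5 of 8 members and in 20.8% of promoters. The GC box GGGCGG, which overlaps the EGR site in Dusp2 and Dusp16, occurred in all members with a promoter but Dusp6, and in 35.7% of promoters. The AP-1 site TGANTCA, the forkhead site TGTTTAC and, on the strand of the gene, TATAAA were found in 0 of the 8 members and in 7.81%, 3.65% and 8.32% of promoters. The members' promoters were rich in G and C, from 57.3% (Dusp6) to 78.7% (Dusp7), against a median of 52.7% over all promoters. A match describes these letters only, and binding was not measured.

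Total counts were 19032620 to 21707706 in the WT group and 20762042 to 23159815 in the cKO group, and levels are given as CPM, which are counts relative to the scaled library total, where 3 counts equal 0.133 to 0.156 CPM. Xrcc6, the targeted gene, was at 20.9, 63.1 and 23.8 CPM in the WT libraries and only 5.24, 3.51 and 4.18 CPM in the cKO libraries, so the groups followed their labels. WT replicate 2 stood apart. It had counts for 11513 genes, against 14442 to 14737 in the other libraries, and the phosphatases and gene lists are therefore compared with and without it. All 8 Treg markers had counts and summed to 4599 to 6424 CPM in the WT group and 4929 to 5537 CPM in the cKO group. Of 6 markers of CD8 T and NK cells, 4 had counts and summed to 5.26 to 21.1 CPM in the WT group and 19.3 to 21.3 CPM in the cKO group, while Ncr1 and Klra8 were not among the genes analysed here. Those of B cells, of lung epithelium, and of endothelium and stroma summed to at most 101 CPM in any library. Macrophage and neutrophil markers summed to 155 to 622 CPM in the WT group and 208 to 804 CPM in the cKO group, and Lyz2 was the highest of them. The part of such cells in the levels of the phosphatases was not tested.

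The phosphatases differed widely in level. To compare genes, CPM was divided by the length of all exons of a gene in kilobases, and values on this scale are levels per length. Dusp1 was the highest, at 896 to 1041 CPM per kb over the 6 libraries, and ranked 56 of 14783 genes with a known length. Dusp2 (238 to 350 CPM per kb) and Dusp5 (234 to 287 CPM per kb) followed, and their ranges overlapped, with Dusp2 above Dusp5 in 4 of 6 libraries. Dusp10, at 114 to 188 CPM per kb, and Dusp4, at 77.7 to 112 CPM per kb, came next and did not overlap each other. These 5 genes all ranked in the highest 3.51% of genes. Dusp6 was lower, at 10.9 to 15.6 CPM per kb. Dusp7 (4.09 to 4.97 CPM per kb) and Dusp16 (3.13 to 5.0 CPM per kb) overlapped, and Dusp8 was the lowest, with at most 2.35 CPM per kb in any library.

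**Figure D1:**
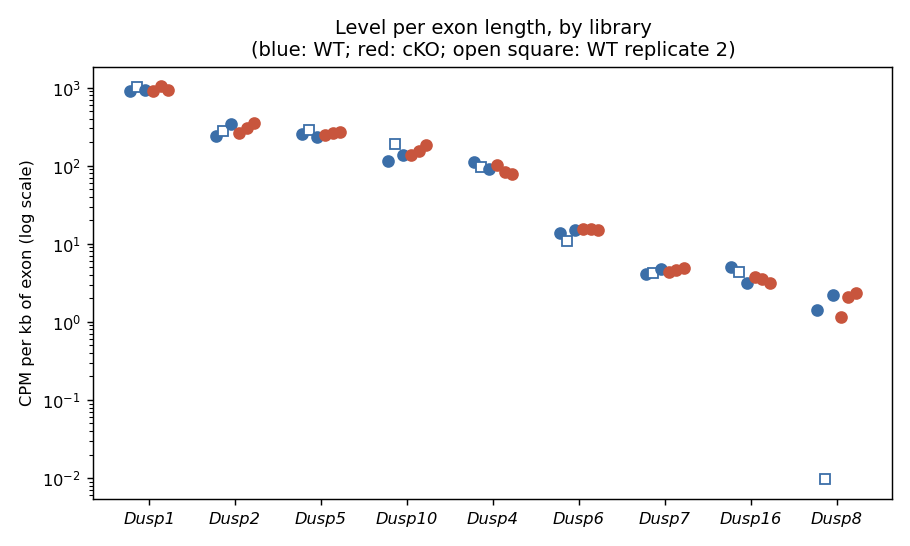
Level of each phosphatase in every library as CPM per kb of exon on a log axis, with WT libraries in blue, cKO libraries in red and WT replicate 2 as an open square. Dusp1 sits between 896 and 1041 CPM per kb in all 6 libraries, and Dusp8 in WT replicate 2 falls to 0.00965 CPM per kb.

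By this measure Dusp1 alone made up 50.6 to 55.7% of the summed level of the 9 phosphatases in each library. Dusp2 gave 14.5 to 19.2%, Dusp5 13.2 to 15.3%, Dusp10 6.91 to 9.92% and Dusp4 4.23 to 6.80% of the sum. The order of the first 5 genes places the nuclear inducible enzymes and Dusp10 above the cytoplasmic ERK phosphatases Dusp6 and Dusp7.

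Among the inducible nuclear enzymes, no difference between the groups was detectable. Dusp1, which acts on p38, JNK and ERK, was at 2997, 3383 and 3125 CPM in WT Tregs (replicates 1, 2 and 3, in this order here and for the genes that follow) and 2968, 3447 and 3080 CPM in cKO Tregs. The groups spanned nearly the same range, with means of 3168 ± 197 and 3165 ± 251 CPM (SD, n = 3). The log2 fold difference (log2FC, cKO relative to WT, from edgeR) was -0.00 with a standard error (SE) of 0.22, its 95% interval ran from 0.694- to 1.44-fold, and the quasi-likelihood test gave an adjusted p = 0.999. It was 0.05 (SE 0.20) without WT replicate 2. In bulk RNA, fewer cells of a type and less RNA per cell cannot be told apart, for Dusp1 and for all genes below. The annotated span of Dusp1 shares 640 bases with that of Ergic1 on the opposite strand, and the strand setting of the counting is not given in the sources used here.

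Dusp2, which dephosphorylates ERK and p38 in lymphocytes, was at 478, 564 and 683 CPM in WT Tregs and 525, 600 and 701 CPM in cKO Tregs. The values of the groups interleaved. Its log2FC was 0.08 (SE 0.21), with a 95% interval of 0.759- to 1.48-fold, and 0.07 without WT replicate 2. Dusp5, an ERK phosphatase that also holds ERK in the nucleus, was at 624, 709 and 578 CPM in WT Tregs and 604, 653 and 676 CPM in cKO Tregs. All 3 cKO values lay between the lowest and the highest WT value. Its log2FC was 0.02 (SE 0.17), with a 95% interval of 0.769- to 1.33-fold, and 0.10 (SE 0.16) without WT replicate 2.

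Dusp4, which acts on ERK and JNK, had the lowest level per length of the nuclear enzymes. It was at 307, 267 and 250 CPM in WT Tregs and 276, 227 and 213 CPM in cKO Tregs. Only cKO replicate 1 reached into the range of the WT group. The means were 275 ± 28.8 and 238 ± 32.9 CPM (SD, n = 3). By edgeR this was a log2FC of -0.20 (SE 0.17, unadjusted p = 0.254, adjusted p = 0.984). An exact permutation test, two-sided, gave p = 0.3, where 3 libraries against 3 cannot give a p under 0.1. Leaving out WT replicate 2 gave a log2FC of -0.23 (SE 0.17), with a 95% interval of 0.656- to 1.11-fold.

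**Figure D2:**
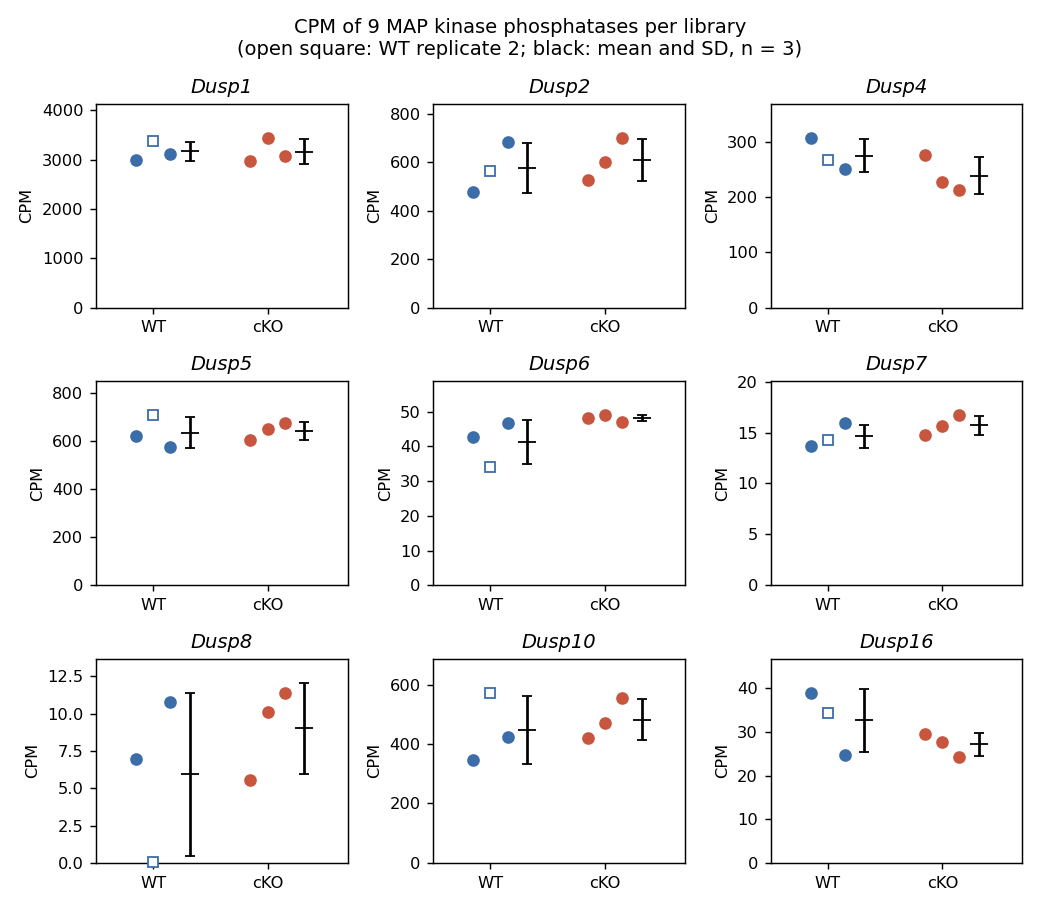
CPM of the 9 phosphatases in each WT library (blue, with WT replicate 2 as an open square) and cKO library (red), with the mean and SD of 3 libraries in black and each vertical axis starting at 0. The groups overlap for all genes but Dusp6, where the lowest cKO value is 47.2 CPM and the highest WT value 46.7 CPM.

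Of the cytoplasmic enzymes, Dusp6 was the only phosphatase of the 9 whose groups did not overlap. It was at 42.8, 34.2 and 46.7 CPM in WT Tregs and 48.3, 49.0 and 47.2 CPM in cKO Tregs. The gap between the groups was narrow, WT replicate 2 was the lowest library, and the cKO libraries lay close together. The means were 41.2 ± 6.44 and 48.2 ± 0.919 CPM (SD, n = 3), and p = 0.1 was reached in an exact permutation test, two-sided, the smallest p it allows here. By edgeR, the log2FC was 0.22 (SE 0.17, unadjusted p = 0.215, adjusted p = 0.984). It was 0.10 (SE 0.12) without WT replicate 2, where the groups still did not overlap. Over all genes tested, 8.24% had groups that did not overlap with 6 libraries and 16% without WT replicate 2, against 1 of the 9 phosphatases in each case. With CPM taken from the library size alone, the groups of Dusp6 overlapped.

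Dusp7, the relative of Dusp6, was at 13.7, 14.3 and 15.9 CPM in WT Tregs and 14.8, 15.6 and 16.7 CPM in cKO Tregs. The lowest cKO value was below the highest WT value, so the groups overlapped. Its log2FC was 0.10 (SE 0.23), with a 95% interval of 0.738- to 1.56-fold, and 0.08 (SE 0.16) without WT replicate 2.

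The phosphatases of JNK and p38 held the members most affected by WT replicate 2. Dusp10, which restrains JNK and p38 in T cells, was at 346, 572 and 423 CPM in WT Tregs and 419, 472 and 555 CPM in cKO Tregs. WT replicate 2 was the highest library of all 6, and WT replicate 1 the lowest. The log2FC was 0.11 (SE 0.23), with a 95% interval of 0.746- to 1.56-fold. Leaving out WT replicate 2 moved it to 0.33 (SE 0.19, unadjusted p = 0.117, adjusted p = 0.997 by edgeR), with an interval of 0.933- to 1.69-fold, and cKO replicate 1 was still below WT replicate 3. The span of Dusp10 shares 1272 bases with that of 1700056E22Rik on the other strand.

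Dusp16, a JNK phosphatase, was at 39.0, 34.3 and 24.7 CPM in WT Tregs and 29.6, 27.8 and 24.4 CPM in cKO Tregs. The cKO libraries lay low in the WT range or just below it, and WT replicate 3 was next to the lowest cKO library. By edgeR, the log2FC was -0.26 (SE 0.22, unadjusted p = 0.272), with a 95% interval of 0.587- to 1.19-fold, and -0.22 (SE 0.20) without WT replicate 2.

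Dusp8, the largest protein of the family, was nearly absent from a single library. It had 146, 1 and 208 counts in WT Tregs and 120, 211 and 257 counts in cKO Tregs. All libraries but WT replicate 2 were between 5.57 and 11.4 CPM, and WT replicate 2 was at 0.047 CPM. A minority of the genes of this level dropped out there as well. Of the 1290 genes that averaged 5.57 to 11.4 CPM elsewhere, 12.3% had at most 1 count in WT replicate 2, against 0% of such genes in each other library. The log2FC of Dusp8 was 0.60 (SE 1.19), with a 95% interval of 0.221- to 10.4-fold. It was 0.03 (SE 0.33) without WT replicate 2, with an interval of 0.604- to 1.72-fold.

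**Figure D3:**
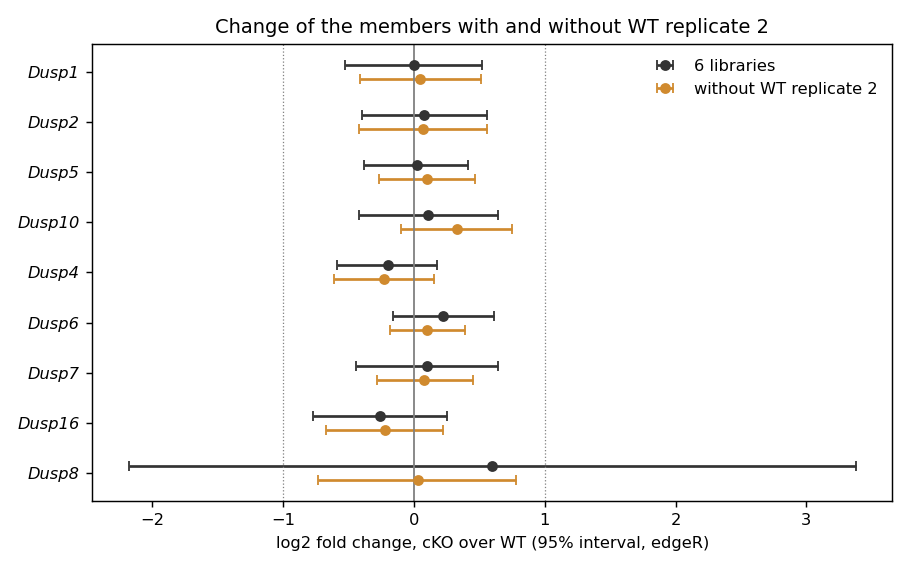
Log2FC of cKO over WT with its 95% interval from edgeR for each phosphatase, with 6 libraries in black and without WT replicate 2 in orange, where dotted lines mark a 2-fold difference either way. Every interval includes 0, and the interval of Dusp8 spans -2.18 to 3.38 with 6 libraries and -0.73 to 0.78 without WT replicate 2.

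As a family, the 9 phosphatases had a median log2FC of 0.08 (range -0.26 to 0.60), with 6 higher and 3 lower in cKO Tregs, and the median over all genes tested was 0.04. Without WT replicate 2 the median was 0.07 (range -0.23 to 0.33), with 7 higher and 2 lower, against -0.01 over all genes. At an unadjusted p under 0.05 from edgeR, 0 of the 9 passed in either fit, while 1.81% of all genes passed with 6 libraries and 3.01% without WT replicate 2. At an adjusted p under 0.05, 0 of the 9 passed in either fit, and of all genes 0% passed with 6 libraries and 0.00654% without WT replicate 2, which was Xrcc6 alone. DESeq2 gave 0 of the 9 at either limit as well. The lowest unadjusted p among them was 0.215 (Dusp6), and 0.117 (Dusp10) without WT replicate 2.

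Within the spread between these samples, which may be technical, the values bound the size of a difference. The 95% interval lay within 2-fold either way for 8 of 9 phosphatases, all but Dusp8, as it did for 73.5% of the 8447 genes with a mean of at least 10 CPM and 41.5% of all genes. Without WT replicate 2 the interval lay within 2-fold for 9 of 9 phosphatases, 96.6% of the genes of at least 10 CPM and 62.7% of all genes.

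Dusp1, Dusp7 and Dusp5 varied little between libraries. The highest library was 1.16 times the lowest for Dusp1, 1.22 times for Dusp7 and 1.23 times for Dusp5. Of the genes of at least 10 CPM, 2.02%, 5.33% and 6.2% had a smaller ratio, in the same order. The median ratio over those genes was 1.68. The ratio was 1.43 for Dusp6, 1.44 for Dusp4, 1.47 for Dusp2, 1.60 for Dusp16 and 1.65 for Dusp10. The ratio of Dusp8 was 243, and 2.05 without WT replicate 2.

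The steadiness of Dusp1 stood beside a wide spread of other immediate-early genes, which are likewise transcribed quickly after MAP kinase activation. Of 20 such genes, 18 were higher in WT replicate 2 than in both other WT libraries and 15 were highest there of all 6 libraries. Of the 9 phosphatases, 3 (Dusp1, Dusp5 and Dusp10) were higher in WT replicate 2 than in both other WT libraries. Of these, 2, Dusp5 and Dusp10, were highest there of all 6. Over the 8447 genes of at least 10 CPM, 3618 were higher in WT replicate 2 than in both other WT libraries, and 37.6% were highest there of all 6. On the log2 scale, WT replicate 2 differed from the mean of the other WT libraries by a median of 0.77 for the immediate-early genes. The median was -0.04 for the phosphatases and -0.01 for the genes of at least 10 CPM. For example, Junb, a component of AP-1, was at 3296, 7389 and 4574 CPM in WT Tregs, and Zfp36, an RNA-binding protein that destabilizes cytokine mRNA, at 947, 3111 and 2264 CPM. The cKO libraries lay within the WT range for both genes. Junb had a log2FC of -0.32 and Zfp36 one of -0.29, which became 0.05 and 0.10 without WT replicate 2.

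**Figure D4:**
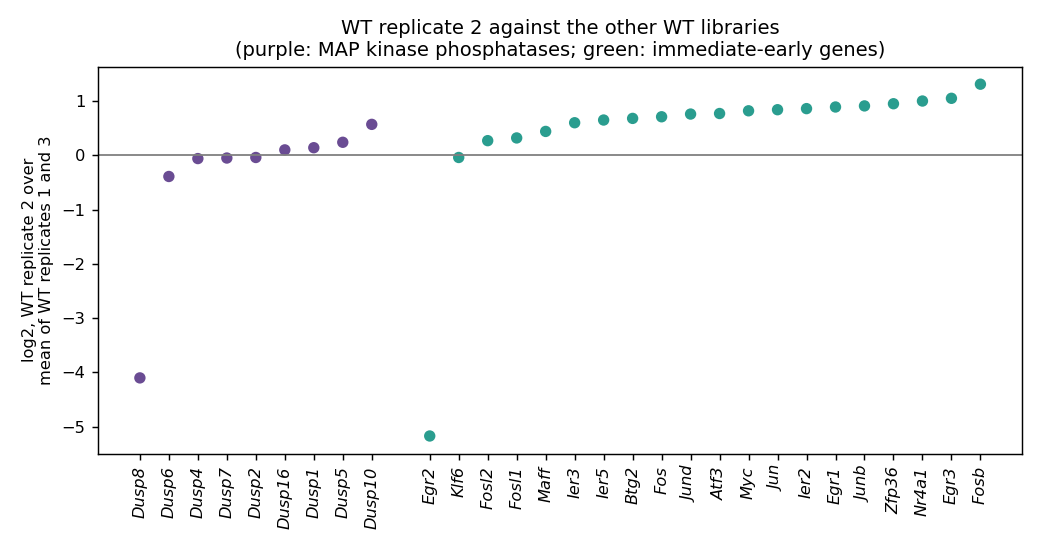
Log2 ratio of WT replicate 2 to the mean of WT replicates 1 and 3, on CPM + 0.5, for the 9 phosphatases (purple) and the 20 immediate-early genes (green), where the line marks an equal level. The phosphatases range from -4.10 (Dusp8) to 0.57 (Dusp10), and the immediate-early genes from -5.17 (Egr2) to 1.31 (Fosb), the extremes being named after their values were seen.

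In the immediate-early list, 7 genes were higher and 13 lower in cKO Tregs with 6 libraries, and 16 higher and 4 lower without WT replicate 2, with a median log2FC of -0.12 and 0.12. Egr3, a transcription factor induced by the T cell receptor, was the only one with an unadjusted p under 0.05. It was at 8.84, 19.9 and 9.8 CPM in WT Tregs and 7.47, 6.05 and 5.2 CPM in cKO Tregs. All cKO values were below all WT values, and 8.24% of all genes tested had groups that did not overlap. By edgeR its log2FC was -1.04 (SE 0.42, unadjusted p = 0.0415, adjusted p = 0.984), and -0.58 (SE 0.23, unadjusted p = 0.0306) without WT replicate 2.

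The kinases that the phosphatases act on, and those above them, gave 0 genes past an unadjusted p of 0.05 from edgeR with 6 libraries. Of the MAP kinases, 9 of 10 had counts, of which 4 were higher and 5 lower in cKO Tregs, and the list had a median log2FC of -0.02. Without WT replicate 2, 5 were higher and 4 lower, with a median of 0.16. Mapk14, which encodes p38 alpha, was at 85.4, 97 and 95.2 CPM in WT Tregs and 104, 99.2 and 110 CPM in cKO Tregs. Every cKO library was above every WT library for Mapk14, and 8.24% of all genes tested likewise had groups that did not overlap. By edgeR the log2FC of Mapk14 was 0.17 (SE 0.13, unadjusted p = 0.221), or 0.21 (SE 0.13, unadjusted p = 0.148) without WT replicate 2. Of the 7 MAP kinase kinases, 5 were higher and 2 lower (4 and 3 without WT replicate 2). The most abundant were Map2k3, which activates p38, with a log2FC of -0.07 (-0.15 without WT replicate 2), and Map2k2, which activates ERK, with 0.32 (0.12 without it).

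Of the 12 kinases at the level of the MAP kinase kinase kinases, 4 were higher and 8 lower (5 and 7 without WT replicate 2). Map3k3, which acts upstream of several MAP kinases, had a log2FC of 0.26 (0.29 without WT replicate 2). Its groups did not overlap either, as for 8.24% of all genes tested. Map3k14, the kinase of the noncanonical NF-kB pathway, was at 54.3, 89.9 and 69.1 CPM in WT Tregs and 77.2, 78.4 and 78 CPM in cKO Tregs. Its cKO values lay inside the WT range, and its log2FC of 0.13 became 0.34 (SE 0.14, unadjusted p = 0.0442 from edgeR) without WT replicate 2. Of the 11 RAS GTPases and exchange factors, 2 were higher and 9 lower. They were 4 and 7 without WT replicate 2. Rasgrp1, which couples the T cell receptor to RAS, had a log2FC of -0.29 (-0.15 without WT replicate 2), and Rasgrp2 one of -0.37 (0.40 without it). None of these differences passed adjustment.

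Other genes restrain the same pathway. Of the Sprouty and SPRED inhibitors of RAS signaling, 6 of 7 had counts, with 2 higher and 4 lower (3 and 3 without WT replicate 2). Spry1, the most abundant, was at 67.3, 44.7 and 72.9 CPM in WT Tregs and 58.1, 64.1 and 62.3 CPM in cKO Tregs, with a log2FC of -0.00 (SE 0.20). WT replicate 2 was its lowest library, and without it the log2FC was -0.19 (SE 0.13). Spred2 had a log2FC of -0.17 (-0.21 without WT replicate 2). Spry4 was near the limit of detection, with 1, 0 and 0 counts in WT Tregs and 2, 9 and 6 counts in cKO Tregs. Set against 0.156 CPM, the highest level that 3 counts equal in a WT library, the mean of the cKO group was 1.69-fold higher. In cKO replicate 1, Spry4 was itself under 3 counts. The edgeR test, which used the counts and not this limit, gave an unadjusted p = 0.0326, or 0.0506 without WT replicate 2. Of the 10 kinases activated by MAP kinases, 6 were higher and 4 lower in both fits, and Mknk2 and Rps6ka1, the most abundant, had log2FC values of 0.13 and 0.46 (0.08 and 0.22 without WT replicate 2).

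Among 10 other phosphatases that act on MAP kinases, 5 were higher and 5 lower with a median log2FC of -0.06, and 7 were higher and 3 lower with a median of 0.08 without WT replicate 2. With 6 libraries, 0 of them passed an unadjusted p of 0.05. The most abundant, Ppp2ca and Ppp2r1a, subunits of protein phosphatase 2A, had log2FC values of 0.09 and 0.23 (0.11 and 0.05 without WT replicate 2). Ppm1d, a phosphatase of p38 and of the DNA damage response, was at 33.6, 14.8 and 31.9 CPM in WT Tregs and 41.9, 38.8 and 42.7 CPM in cKO Tregs. Every cKO library was above every WT library, and 8.24% of all genes tested had groups that did not overlap. The log2FC was 0.62 (SE 0.31, unadjusted p = 0.0805 from edgeR), and 0.33 (SE 0.13, unadjusted p = 0.0315) without WT replicate 2. Ppp2cb, the second catalytic subunit of protein phosphatase 2A, was at 28.7, 13.6 and 32.8 CPM in WT Tregs and 20.3, 23.3 and 22.9 CPM in cKO Tregs. WT replicate 2 was the lowest library and the other WT libraries the highest, and the log2FC of -0.17 became -0.47 (SE 0.14, unadjusted p = 0.0101) without WT replicate 2. Neither gene passed adjustment in either fit.

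Of the 16 other dual-specificity phosphatases, 12 had counts, of which 4 were higher and 8 lower in cKO Tregs, with a median log2FC of -0.15. Without WT replicate 2, 5 were higher and 7 lower, with a median of -0.04. In either fit, 0 of them passed an unadjusted p of 0.05 from edgeR. Dusp11, an RNA phosphatase, was steady, at 154, 140 and 176 CPM in WT Tregs and 165, 180 and 175 CPM in cKO Tregs. Dusp14, which dephosphorylates T cell signaling proteins, was at 223, 43.8 and 90 CPM in WT Tregs and 118, 108 and 65.8 CPM in cKO Tregs. WT replicates 1 and 2 were its highest and lowest libraries, and the log2FC was -0.29 (SE 0.54), or -0.69 (SE 0.36) without WT replicate 2. Dusp19 was lowest in WT replicate 2, at 3.29 CPM against 11.5 to 20.1 CPM in the other libraries, while Styx, a catalytically inactive relative, was highest there, at 71.1 CPM against 28.1 to 32.5 CPM. Dusp3 and Dusp12 had a log2FC of -0.52 and of -0.19, which became -0.02 and -0.10 without WT replicate 2. Dusp9, the close relative of Dusp6 and Dusp7, was at 1.53, 5.87 and 0.782 CPM in WT Tregs and 1.21, 1.68 and 1.02 CPM in cKO Tregs, and was named after its values were seen.

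Over the 103 genes of these lists, 97 had counts, 39 were higher and 58 lower, and 1 in each direction (Spry4 and Egr3) had an unadjusted p under 0.05 from edgeR. Without WT replicate 2, 55 were higher and 42 lower, and 2 in each direction passed. Over all genes tested, 1.81% passed this limit with 6 libraries and 3.01% without WT replicate 2. At an adjusted p under 0.05, 0 passed in either fit. The median log2FC was -0.07 with 6 libraries and 0.05 without WT replicate 2, against 0.04 and -0.01 over all genes.

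The genes that differed least from each of the highest phosphatases were sought among the 8447 genes of at least 10 CPM. The measure was the root mean square difference of log2(CPM + 0.5), as deviations from each gene's mean over the 6 libraries. It is small between any genes that both vary little, so a small value need not mean a shared pattern. For Dusp1 the closest genes were Hdac2 (0.0303), Dnttip1 (0.031) and Rbm7 (0.0329). For Dusp2 they were Slc9a9 (0.0481), Etv3 (0.0649) and Fam129b (0.0693), and for Dusp5 they were Ppm1g (0.0182), Tax1bp1 (0.0281) and Hgsnat (0.0298). Between phosphatases, Dusp1 and Dusp5 differed by 0.0854, which placed Dusp5 at rank 159 for Dusp1. Both varied little between libraries, so this value does not show that they followed a shared pattern. Dusp2 and Dusp7 differed by 0.115, which placed Dusp7 at rank 42 for Dusp2. All values rest on 6 libraries that share 1 preparation method, so the likeness is a description.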

How the data were processed

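RNA-Seq libraries of tumor-infiltrating Tregs (3 WT, 3 cKO) were prepared with a SMARTER mRNA kit. The deposited values are the authors' estimated counts for each gene symbol and were not normalized. The submitters' processing notes name Bowtie2 (version 2.3.4.3), RSEM (version 1.3.1) and GRCm38, and the annotation and strand setting are not given in the sources used here. In the table, 21.6% of values were not whole (tolerance 1e-09), and values were rounded, while all 9 phosphatases were whole in every library. The cKO group was tested against the WT group in edgeR (version 4.0.16, with limma 3.58.1 and R 4.3.3) by the quasi-likelihood method after TMM scaling. The p-values of all 15315 genes that had a count in any library were adjusted by the Benjamini-Hochberg method. Standard errors were derived from each log2FC and its F value. Exact permutation tests used CPM and were two-sided. Limits at 3 counts cover counting error only. Alternatives were DESeq2 (version 1.42.0), other scalings, filterByExpr (minimum count 10), limma's voomWithQualityWeights, a replicate block and leaving out each library.

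The phosphatases, the gene lists and the rule for named genes were chosen with earlier results of these data known. The rule named all 9 phosphatases, Xrcc6, list genes with an unadjusted p under 0.05 in either fit, the 2 most abundant genes of each list, other dual-specificity phosphatases of at least 10 CPM, the markers, and the 3 closest genes to each of the 3 highest phosphatases. Some genes of this rule are not reported here. Positions, exon lengths and coding stretches came from GENCODE vM21 (GRCm38), and promoters from RefSeq (GRCm38.p6). The scripts were tested on simulated data.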

Additional observations from a re-analysis of the deposited data

How the results depend on the processing

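Of 126 values of the phosphatases under 14 alternatives, 112 kept their direction and 14 turned it, and in 0 of them was an unadjusted p under 0.05. The values that turned were near 0. The log2FC of Dusp1 was 0.01 by DESeq2 and by median-of-ratios scaling, 0.04 by limma's voomWithQualityWeights and 0.05 by DESeq2 without WT replicate 2, and that of Dusp5 was -0.05 with library size only. Leaving out single libraries, the log2FC ranged from -0.07 to 0.05 for Dusp1, -0.03 to 0.23 for Dusp2, -0.04 to 0.10 for Dusp5 and -0.05 to 0.33 for Dusp10, and that of Dusp8 from 0.03 to 1.37. The median over the 9 phosphatases was 0.01 with library size only and -0.03 to 0.14 with a library left out, and 0 of them had groups that did not overlap with library size only.

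Over all genes, those with an adjusted p under 0.05 were 2 by DESeq2, 3 by DESeq2 without WT replicate 2, and 0 to 1 with edgeR and a library left out. Those with an unadjusted p under 0.05 were 543 by voomWithQualityWeights, 140 after filterByExpr, and 65 (without cKO replicate 3) to 874 (without WT replicate 1) with a library left out. Same-numbered libraries correlated at -0.01, -0.21 and 0.20 in their deviations from the group means, and differently numbered ones at -0.31 to 0.31. Deviations within a group of 3 depend on each other, so these values cannot tell whether replicate numbers pair the samples. With the replicate block, 85 genes had an unadjusted p under 0.05. The causes of these shifts were not tested. Outside Dusp8, the 95% intervals with 6 libraries reached from 0.587-fold (Dusp16) to 1.56-fold (Dusp7 and Dusp10). They rest on the spread between 3 libraries per group, which may be technical.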
